A study of Mus musculus with 8 samples.

Results

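The genes described here are 35 markers of microglia, the resident macrophages of the brain, listed by symbol as known genes of these cells. They fall into 11 genes of the homeostatic state, 20 genes of the disease-associated state and 4 genes of microglia in general. The array's probe table names 31 of the 35, each with 1 probe set, out of 19505 genes in all. Clec7a, Spp1, Cd68 and Cd74 are not listed in it and were not analysed here. Of the 31, 29 passed the filter on dim genes, against 14628 genes in the whole series, and Itgax and Ccl4 did not.

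The values come from hippocampi of 8 mice labelled B6.Cg-Tg(APPswe)E1-2Dbo/J, which carry a transgene of mutant amyloid precursor protein. They were 18 to 20 months old and were killed after the Morris water maze, a test of spatial memory. The labels call memory impaired in 4 of them and intact in the other 4, with 1 array for each animal. Both groups carry the transgene and share the age, so that the comparison is among aged transgenic mice and not against wild-type mice. The labels do not give the sex of the mice or the promoter that drives the transgene. Expression values are log2 array signals summarised by RMA (robust multi-array average), and a log2 difference of 1 is a doubling.

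In the healthy brain, microglia survey the tissue with purinergic and chemokine receptors such as P2ry12 and Cx3cr1, and they depend on signals through the receptor Csf1r. Near amyloid plaques they are known to lower these genes and to raise another set, in part through the receptor Trem2 and its adaptor Tyrobp, which signals through the kinase Syk. That set holds lysosomal and lipid genes, chemokines and growth factors, and is called the disease-associated state. In RNA of whole tissue, fewer cells of a type and less RNA per cell cannot be told apart.

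The transcription factor PU.1, encoded by the member Spi1, is a master regulator of these cells, and its sites hold an ETS core. The 250 bases before the transcription start were read from RefSeq (GRCm38.p6) for the 25 members with an entry, and GAGGAAGT was sought on both strands. It occurred in 2 of these 25 genes, Inpp5d and Spp1. Counted by window, it was in 2 of their 29 windows, against 2.44% of all 32851 windows. Its shorter core GGAAGT, which lies within the longer motif and was added after the windows were seen, occurred in 13 of the 29 windows of members and in 19.7% of all windows. These are matches of letters and not sites shown to be bound. Shown here, 5′ to 3′ with the core in capitals, are the window of a homeostatic gene (P2ry12, chr3:59262986-59263235, reverse strand), of the disease-associated genes Cst7 (chr2:150570165-150570414, forward strand) and Trem2 (chr17:48346151-48346400, forward strand), whose values turn on the same mouse below, and of Inpp5d (chr1:87620062-87620311, forward strand), which holds the longer motif. The core starts 51, 62 and 18 bases before the start of P2ry12, Cst7 and Inpp5d, and these letters are not in the window of Trem2.
P2ry12: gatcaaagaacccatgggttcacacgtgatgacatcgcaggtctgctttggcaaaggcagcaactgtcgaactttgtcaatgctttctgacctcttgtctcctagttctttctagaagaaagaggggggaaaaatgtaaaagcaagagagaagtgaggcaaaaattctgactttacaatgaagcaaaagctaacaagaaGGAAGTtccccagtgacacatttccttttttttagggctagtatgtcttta
Cst7: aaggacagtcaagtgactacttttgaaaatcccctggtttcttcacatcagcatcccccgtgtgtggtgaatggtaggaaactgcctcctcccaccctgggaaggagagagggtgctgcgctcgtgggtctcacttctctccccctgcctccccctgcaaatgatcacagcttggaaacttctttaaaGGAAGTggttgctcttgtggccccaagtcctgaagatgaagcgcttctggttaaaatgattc
Trem2: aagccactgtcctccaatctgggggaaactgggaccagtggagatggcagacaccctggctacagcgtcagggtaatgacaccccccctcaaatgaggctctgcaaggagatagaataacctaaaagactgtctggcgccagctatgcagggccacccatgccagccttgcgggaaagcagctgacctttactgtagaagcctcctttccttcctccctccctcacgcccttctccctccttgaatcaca
Inpp5d: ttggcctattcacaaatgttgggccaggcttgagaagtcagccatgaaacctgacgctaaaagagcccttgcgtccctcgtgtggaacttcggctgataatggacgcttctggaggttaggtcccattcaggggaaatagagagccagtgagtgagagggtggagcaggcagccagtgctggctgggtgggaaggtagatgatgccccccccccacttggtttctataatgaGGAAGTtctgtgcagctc

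Signal over background was judged by 5222 negative-control probe sets of the array. Of the 29 members tested, 12 had a mean above the 95th percentile of these controls (7.92), 15 lay between it and the 75th percentile (6.30), and Cd52 and Aif1 lay below the latter. The genes tested had an array median between 7.75 and 7.79 in every mouse, and the correlation across genes between arrays lay between 0.979 and 0.989. All 7 markers of hippocampal neurons on the list (Prox1, Calb1, Wfs1, Fibcd1, Grik4, Neurod6 and Spink8) were tested, and Spink8 alone had a mean below 6.30. Markers of bordering tissue set some mice apart. For each mouse, the deviation of a gene is its value minus its mean over the 8 mice. Averaged over 11 choroid plexus genes it was -1.03 for impaired mouse 3, -0.99 for intact mouse 3 and between -0.41 and 0.95 in the others. That of 12 thalamus genes was -1.25 in intact mouse 3 and between -0.22 and 0.46 in the others. All 11 plexus genes had a lower mean in the impaired group (median difference -0.61), and 11 of the 12 thalamus genes a higher one (median 0.26).

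No member differed between the groups after adjustment over all 14628 genes, where 0 (0%) passed an adjusted p of 0.05 in limma and 685 had an unadjusted p under 0.05. With limma's trend and robust prior 1 gene passed. Of the 29 members, 16 had a higher mean in the impaired mice and 13 a lower mean. The number with a higher mean rested on single mice: it was 24 without impaired mouse 1, 23 without impaired mouse 2, 12 without impaired mouse 3 and 11 without intact mouse 3. An unadjusted p under 0.05 was reached by 2 members, Igf1 and Cst7, both higher in the impaired group, which is 6.90% of the members against 2.17% of all genes. In the lower direction it was reached by 0 members, against 2.52% of all genes. The groups did not overlap for 1 member, Igf1, higher in the impaired mice, which is 3.45% against 1.12% of all genes, and for 0 members in the lower direction, against 1.46%. With counts of 1 and 2 these shares were too coarse to set the members apart. The number with an unadjusted p under 0.05 was 0 without intact mouse 1 or intact mouse 3, 1 when impaired mouse 3, or either of intact mice 2 and 4, was left out, and 3 without impaired mouse 1 or impaired mouse 2. It was also 0 with the plexus and thalamus scores as covariates. The median difference, impaired minus intact, was 0.0065 for the 11 homeostatic members, 0.058 for the 14 disease-associated members and 0.022 for the 4 general members, against -0.0083 for all genes.

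**Figure D1:**
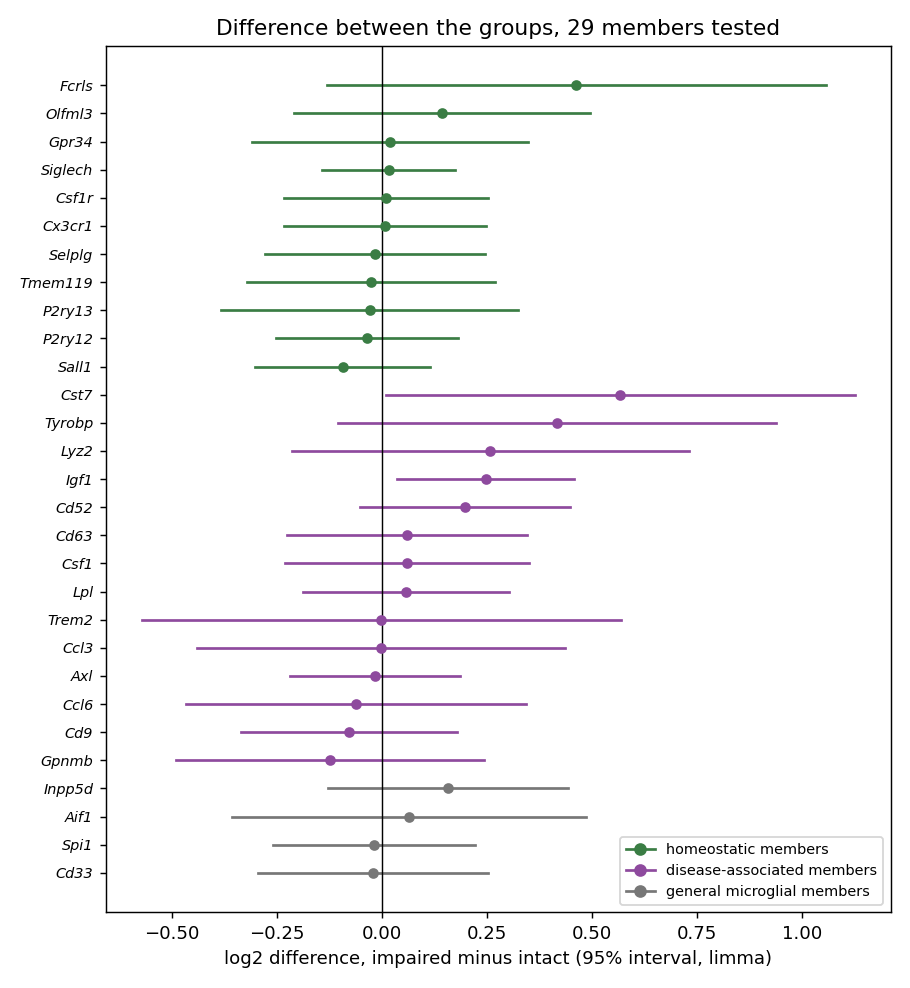
Log2 difference, impaired minus intact, of the 29 members tested (x axis), by gene (y axis). Points are differences and lines are 95% intervals from limma. Those of 27 members include 0, and those of Cst7 and Igf1 lie above it.

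Among the homeostatic genes, the purinergic receptor P2ry12, which guides microglial processes to sites of injury, stood at 9.56, 9.62, 9.80 and 9.97 in impaired mice 1 to 4 and at 9.79, 9.77, 9.78 and 9.75 in intact mice 1 to 4. The impaired values surrounded the intact ones, which lay within a narrow band. The means were 9.74 ± 0.19 (SD, n = 4) and 9.77 ± 0.019 (SD, n = 4). The difference was -0.036 with a 95% interval from -0.25 to 0.18 (limma, adjusted p = 0.991). The fractalkine receptor Cx3cr1, which binds a ligand of neurons, had the same layout. It was 6.95, 7.18, 7.38 and 7.45 in the impaired mice and 7.22, 7.21, 7.28 and 7.22 in the intact mice, with a difference of 0.0065 and an interval from -0.23 to 0.25. In both genes impaired mouse 1 had the lowest value of the 8 and impaired mouse 4 the highest.

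Tmem119, a transmembrane protein used to tell microglia from other macrophages, stood at 7.75, 8.01, 7.68 and 8.04 in the impaired mice and at 8.03, 8.18, 7.68 and 7.70 in the intact mice. Both groups held a high pair and a low pair of mice, and they overlapped over nearly the whole range. The difference was -0.026 (interval -0.32 to 0.27). Csf1r, the receptor on which the survival of microglia depends, was 8.67, 8.79, 9.10 and 8.67 in the impaired mice and 8.96, 8.81, 8.73 and 8.70 in the intact mice. Impaired mouse 3 was highest, by 0.14 over the next mouse, and the other impaired mice lay among or just below the intact ones. The difference was 0.0087 (interval -0.23 to 0.25).

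Sall1, the transcription factor that maintains microglial identity, was 7.39, 7.33, 7.64 and 7.56 in the impaired mice and 7.45, 7.58, 7.71 and 7.56 in the intact mice, a difference of -0.094 (interval -0.30 to 0.11). The lectin Siglech, which signals through Tyrobp, varied least among the members, with all 8 values between 7.54 and 7.65. The receptors Gpr34, which senses lysophosphatidylserine, and P2ry13, a purinergic receptor whose gene neighbours P2ry12, differed by 0.019 (interval -0.31 to 0.35) and -0.030 (interval -0.38 to 0.32). P2ry13 was 6.44 in impaired mouse 2 and between 6.86 and 7.26 in the other 7. Selplg, the ligand of P-selectin, differed by -0.017 (interval -0.28 to 0.24).

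Fcrls, an Fc receptor-like protein of murine microglia, varied most among the homeostatic members. It was 8.15, 8.29, 8.66 and 7.53 in the impaired mice and 8.004, 7.92, 7.92 and 6.93 in the intact mice. In each group mouse 4 was lowest. The other 3 intact mice lay close together, and the other 3 impaired mice spread from 8.15 to 8.66. The groups overlapped only through impaired mouse 4. The impaired mean was higher by 0.46 (SE 0.27, limma adjusted p = 0.961). Leaving out intact mouse 4 lowered this to 0.21. Olfml3, a secreted matrix protein, was 7.87, 8.36, 8.35 and 7.91 in the impaired mice and 8.28, 8.02, 8.02 and 7.61 in the intact mice, a difference of 0.14 (interval -0.21 to 0.50). It was also lowest in intact mouse 4.

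**Figure D2:**
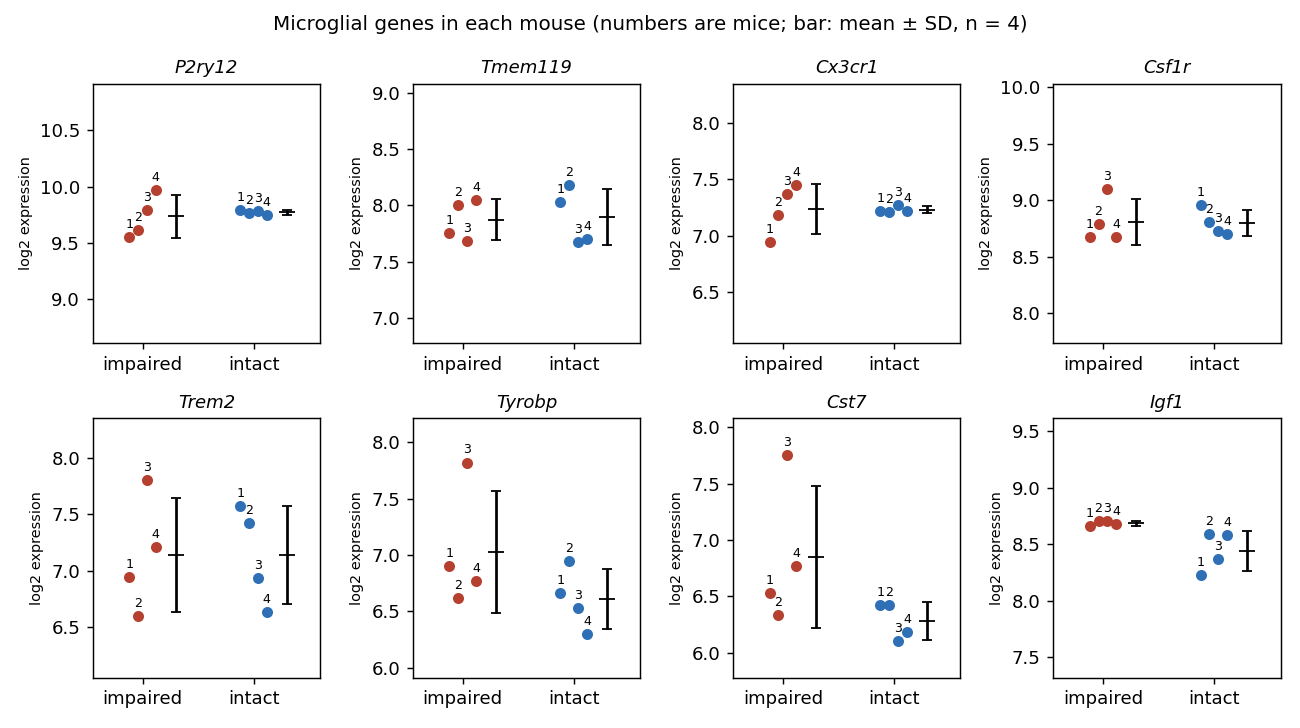
Log2 expression of 8 members (y axes, each spanning the same range) in the impaired and intact mice (x axes). Numbered points are mice, and bars give the mean ± SD of 4 mice. P2ry12 and Cx3cr1 spread more widely in the impaired group, Tyrobp and Cst7 have impaired mouse 3 far above the rest, and the Igf1 groups do not overlap.

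Trem2, the lipid-sensing receptor of the disease-associated state, had a mean of 7.14 ± 0.51 (SD, n = 4) in impaired mice and of 7.14 ± 0.43 (SD, n = 4) in intact mice. Single mice ranged from 6.60 in impaired mouse 2 to 7.80 in impaired mouse 3. Impaired mice 1 and 4 had 6.94 and 7.21, and intact mice 1 to 4 had 7.57, 7.42, 6.93 and 6.64, so that high and low values occurred in both groups. The difference was -0.0017 (limma, adjusted p = 0.999), and its interval, from -0.57 to 0.57, reached up to 1.48-fold higher in the impaired group. Without impaired mouse 3 it was -0.22, and it was slightly above 0 (0.0034 and 0.0055) after quantile normalization and after centring on the median.

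Tyrobp, the adaptor through which Trem2 signals, stood at 6.90, 6.62, 7.82 and 6.77 in the impaired mice and at 6.66, 6.95, 6.53 and 6.30 in the intact mice. Impaired mouse 3 lay 0.87 above the next highest mouse, and the other 3 impaired mice lay within the intact range. The means were 7.03 ± 0.54 (SD, n = 4) and 6.61 ± 0.27 (SD, n = 4), a difference of 0.42 (SE 0.24, limma adjusted p = 0.961). Without impaired mouse 3 the difference was 0.15. Cst7, an inhibitor of lysosomal cathepsins that is among the genes best known for this state, was also far higher in impaired mouse 3 than elsewhere. It was 6.53, 6.34, 7.76 and 6.77 in the impaired mice and 6.42, 6.42, 6.10 and 6.18 in the intact mice. Impaired mouse 3 lay 0.98 above the next mouse, impaired mice 1 and 4 lay above every intact mouse by less, and impaired mouse 2 lay within the intact range. The intact mean, 6.28, was below the 75th percentile of the negative controls, so that no fold is given. The impaired mean was higher by 0.57 (SE 0.25, limma unadjusted p = 0.0470, adjusted p = 0.961). Without impaired mouse 3 it was 0.26 with a standard error of 0.13. The unadjusted p was under 0.05 in 4 of 15 alternatives. These do not include the fit with plexus and thalamus covariates, where it was not under 0.05.

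Of the secreted factors, Igf1, insulin-like growth factor 1, which hippocampal neurons make as well as microglia, was 8.66, 8.71, 8.71 and 8.68 in the impaired mice and 8.23, 8.59, 8.37 and 8.58 in the intact mice. Every impaired value lay above every intact value. The impaired mice were nearly alike, at 8.69 ± 0.023 (SD, n = 4), and the intact mice were at 8.44 ± 0.18 (SD, n = 4). The impaired mean was 1.19-fold that of the intact group, a difference of 0.25 (SE 0.095, limma unadjusted p = 0.0255, adjusted p = 0.961). It ran from 0.17 without intact mouse 1 to 0.30 without intact mouse 2, above 0 in each of the 16 alternatives. The unadjusted p was under 0.05 in 12 of these, the exceptions being the fits without impaired mouse 2, intact mouse 1, intact mouse 3 or both mice numbered 3. The fit with plexus and thalamus covariates is not among these 16, and there the unadjusted p of Igf1 was not under 0.05.

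Csf1, a ligand of Csf1r, was 9.47, 9.48, 9.88 and 9.43 in the impaired mice and 9.50, 9.75, 9.23 and 9.56 in the intact mice, a difference of 0.059 (interval -0.23 to 0.35). Impaired mouse 3 was again highest, and the difference was -0.047 without it and -0.035 without intact mouse 3. The chemokines Ccl3 and Ccl6 were also highest there, at 7.56 and 7.51. Their differences between the groups were -0.0021 (interval -0.44 to 0.44) and -0.063 (interval -0.47 to 0.34). Ccl4, a close relative of Ccl3, had values of 4.74 to 5.18 and was below the level of 5.33 needed for the test.

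Itgax, the integrin CD11c and a usual marker of the disease-associated state, was likewise too dim to test. It was 4.49, 4.43, 4.38 and 4.36 in the impaired mice and 4.46, 4.85, 4.95 and 4.68 in the intact mice, against medians of 3.85 to 4.06 for the antigenomic background probes. All 8 values lay below the 75th percentile of the negative controls, so that they carry little about the gene.

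Among the lysosomal, lipid and surface genes, Lyz2, a lysozyme of myeloid cells with the close relative Lyz1, was 7.10, 6.87, 7.69 and 7.45 in the impaired mice and 7.03, 7.38, 6.45 and 7.21 in the intact mice. The impaired mean was higher by 0.26 (SE 0.21), and without intact mouse 3, which was lowest, it was 0.069. Cd52, a small surface glycoprotein of leukocytes, was 5.97, 5.65, 6.15 and 6.03 in the impaired mice and 5.79, 5.88, 5.72 and 5.61 in the intact mice. The difference was 0.20 (interval -0.053 to 0.45). Gpnmb, a glycoprotein of lysosomes, was 6.34, 6.70, 6.42 and 6.98 in the impaired mice and 7.06, 6.61, 6.84 and 6.42 in the intact mice. Of the disease-associated members tested it had the lowest difference, -0.13 (interval -0.49 to 0.24), and its highest value was in intact mouse 1.

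The tetraspanins Cd9 and Cd63, which other cells of the brain also make, differed by -0.078 (interval -0.34 to 0.18) and 0.059 (interval -0.23 to 0.34). Cd63 was 9.67 in intact mouse 3 and 10.02 to 10.35 in the other mice. Lipoprotein lipase, Lpl, which hippocampal neurons also express, and the receptor kinase Axl, which binds dying cells, differed by 0.057 (interval -0.19 to 0.30) and -0.016 (interval -0.22 to 0.19). For these 4 genes the groups overlapped.

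Of the general members, Spi1, which encodes PU.1, stood at 8.69, 8.67, 9.13 and 8.90 in the impaired mice and at 8.87, 8.94, 8.77 and 8.90 in the intact mice, a difference of -0.020 (interval -0.26 to 0.22). Inpp5d, the lipid phosphatase SHIP1, which opposes signalling through Tyrobp, was 6.78, 7.38, 7.16 and 7.39 in the impaired mice and 6.91, 7.05, 7.08 and 7.03 in the intact mice. The intact values lay close together inside the impaired range, and the difference was 0.16 (interval -0.13 to 0.44). Aif1, the calcium-binding protein known as Iba1, was dim at 5.99, 5.68, 6.06 and 5.54 in the impaired mice and 6.29, 5.85, 5.43 and 5.45 in the intact mice, a difference of 0.064 (interval -0.36 to 0.49). Cd33, an inhibitory sialic acid receptor, was highest in impaired mouse 3 and differed by -0.022 (interval -0.29 to 0.25).

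The intervals set what 4 against 4 arrays could resolve. They lay within 0.5 on either side of 0 for 24 of the 29 members, and this share was 88.6% over all genes. Those that reached further were Fcrls, Trem2, Tyrobp, Cst7 and Lyz2. The median standard error was 0.129 for the members and 0.105 for all genes. Members varied more between single mice than most genes did, with a median range over the 8 mice of 0.61 against 0.45. Of the 29 members, 17 had the larger SD in the impaired group, or 58.6%, against 51.1% of all genes.

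The highest and lowest values of the members were also counted by mouse. Impaired mouse 3 had the highest value of the 8 for 13 of 29 members, or 44.8%, against 14.0% of all genes. These were 8 of the 14 disease-associated members (Trem2, Tyrobp, Cst7, Csf1, Ccl6, Ccl3, Lyz2 and Cd52), 3 of the 11 homeostatic members (P2ry13, Csf1r and Fcrls) and 2 of the 4 general members (Cd33 and Spi1). It had the lowest value for 0 members, against 18.2% of all genes. Cst7 and Tyrobp were the 2 genes of all 14628 that stood farthest above the other 7 mice in impaired mouse 3. There, 18 genes stood above the next mouse by at least 0.5, and the third in that order was Lcn2, a lipocalin of inflamed tissue, at 0.84. Gaps of this size were not particular to that mouse, since 16 genes had one in impaired mouse 1, 11 in intact mouse 2, 10 in intact mouse 3 and 2 to 7 in the others. In intact mouse 3, 4 genes had a gap at least as large as that of Cst7. None of the genes with such a gap in the other 7 mice was a member. The mean deviation of the 14 disease-associated members was 0.37 in impaired mouse 3 and between -0.18 and 0.11 in the other 7 mice. That of the 11 homeostatic members was 0.18 there and between -0.14 and 0.044 in the others. Tmem119 and the disease-associated Gpnmb went the other way, at 7.68 and 6.42 in impaired mouse 3, each near its lowest. Lpl, Siglech and Cd63 were slightly below the median of the other mice there (-0.055, -0.039 and -0.014). The median difference of the disease-associated members between the groups was 0.0049 without impaired mouse 3, 0.0087 without intact mouse 3 and 0.015 without impaired mouse 4, so that its fall was not tied to 1 mouse.

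**Figure D3:**
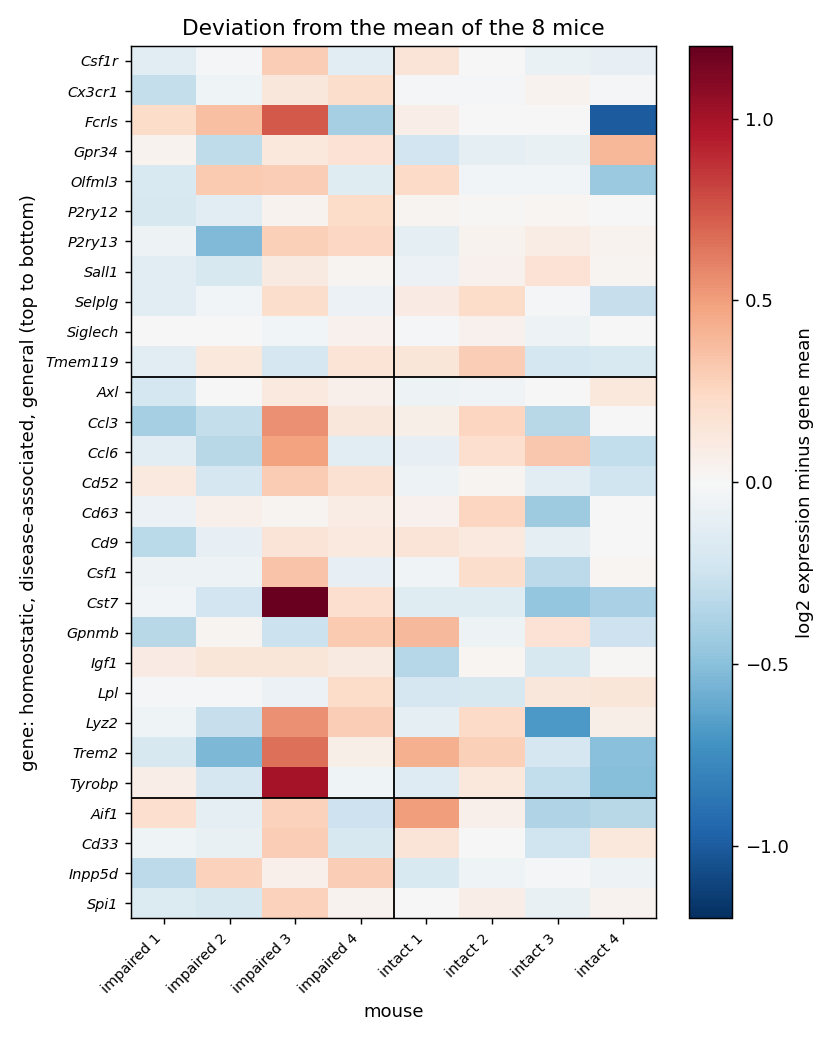
Deviation of each tested member (rows, grouped as homeostatic, disease-associated and general) from its mean over the 8 mice (columns), on the log2 scale, red above and blue below the mean. The column of impaired mouse 3 is the reddest, with Cst7, Tyrobp, Fcrls and Trem2 strongest, and Fcrls in intact mouse 4 is the deepest blue.

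Other lists were read in impaired mouse 3 as well. Of 14 further disease-associated genes tested, 4 were highest there and 3 lowest, or 28.6% and 21.4%, against 14.0% and 18.2% of all genes. Their mean deviation was 0.057 there and between -0.13 and 0.055 in the other mice. That of 5 astrocyte genes was 0.13 there and between -0.15 and 0.091 in the others. Also tested were 20 further microglial genes, such as the complement genes C1qa, C1qb and C1qc and the cathepsin Ctss. Of these, 8 were highest in impaired mouse 3 and 7 in intact mouse 2, while 9 were lowest in intact mouse 3. The shares were 40%, 35% and 45%, against 14.0%, 15.5% and 13.4% of all genes. The mean deviation of these 20 genes was 0.21 for impaired mouse 3, 0.16 for intact mouse 2 and -0.21 for intact mouse 3. Not all microglial genes were high in impaired mouse 3: Ptprc, the leukocyte phosphatase CD45, was lowest there, at 5.90 against 6.28 to 6.82 in the others, and so was the kinase Syk, at 7.07 against 7.20 to 7.69. Of 7 markers of border macrophages, which line vessels and meninges, 6 were tested and 4 of these were highest in impaired mouse 3 (Cd163, Pf4, Cbr2 and F13a1). Their mean deviation ran from -0.044 to 0.27 in the impaired mice and from -0.29 to -0.0040 in the intact mice. An unadjusted p under 0.05 was reached by 3 of the 6, all higher in the impaired mice (limma, adjusted p = 0.961 for each). This is 50% against 2.17% of all genes in that direction, a share that rests on 3 genes of a list chosen with earlier results known. Cbr2 differed by 0.35, Lyve1, a hyaluronan receptor, by 0.30 and Cd163, a haemoglobin scavenger receptor, by 0.26. Of the 7 markers 4, Lyve1 and Cd163 among them, had means below the 75th percentile of the negative controls. Of 7 markers of monocytes and neutrophils 6 did, and Ccr2 lay between 2.77 and 3.88 in all mice. The plexus list was lowest in impaired mouse 3, as given above. The part of these cells and tissues in the values of the members was not tested.

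**Figure D4:**
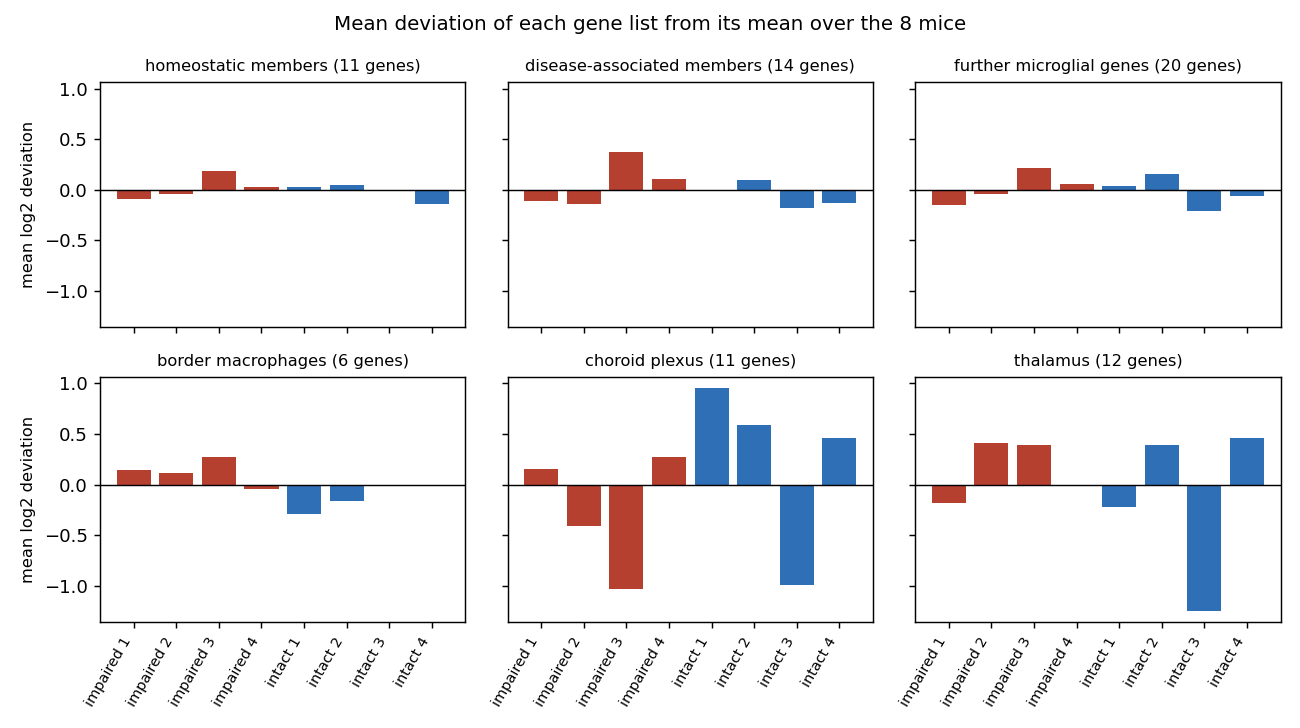
Mean log2 deviation (y axes) of the genes of 6 lists from their means over the 8 mice, by mouse (x axes), red for impaired and blue for intact mice. The homeostatic members, the disease-associated members, the further microglial genes and the border macrophage markers are each highest in impaired mouse 3. The choroid plexus list is lowest there.

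Genes of the same pathways outside the members were measured for comparison. Of 12 ligands and signalling genes around Csf1r, Cx3cr1 and Trem2, 10 were tested, and 0 had an unadjusted p under 0.05 in either direction (limma), with 4 higher and 6 lower means. The kinase Syk differed by -0.039, and Adam17 and Adam10, proteases that shed Trem2, by -0.18 and -0.15. The fractalkine gene Cx3cl1 differed by 0.097 and Il34, the other ligand of Csf1r, by 0.0093. Of the 20 further microglial genes 14 had a higher and 6 a lower mean in the impaired mice, and 0 had an unadjusted p under 0.05. The smallest p among them belonged to Mertk, a receptor for dying cells (0.16), Ctss (0.16) and Ptprc (-0.17). Of 14 further disease-associated genes tested, 5 had a higher and 9 a lower mean. B2m, the light chain of MHC class I, had an unadjusted p under 0.05 at a difference of 0.36 (SE 0.13, limma adjusted p = 0.961), and Ctsl, a lysosomal cathepsin, differed by 0.14 and had groups that did not overlap. The third by p was the ferritin gene Fth1, at -0.094, and Apoe, a lipid carrier raised in the disease-associated state, differed by -0.067.

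Partners were compared across the 8 mice in 6 pairs picked for their known relation after the values had been seen. Trem2 and its adaptor Tyrobp had a Pearson's r of 0.750 (exact permutation p = 0.0148, adjusted over the 6 pairs 0.0890) and a Spearman's rho of 0.762 (exact permutation p = 0.0368, adjusted 0.166). Without impaired mouse 3 and intact mouse 1, those farthest from the median of Trem2, r was 0.744. For P2ry12 and P2ry13, r was 0.673 and rho 0.667 (exact permutation p = 0.0853 and 0.0831), and r was 0.890 without impaired mice 1 and 4. For Csf1 and its receptor Csf1r, r was 0.666 and rho 0.667 (exact permutation p = 0.0746 and 0.0831), and for Spi1 and Csf1r they were 0.652 and 0.429 (exact permutation p = 0.0866 and 0.299). Without the 2 mice farthest from the median of Csf1 or Spi1, impaired mouse 3 and 1 other in each pair, r was 0.241 and 0.320. Leaving out extreme mice also narrows the range, so that this cannot tell whether the relations rested on them. For Il34 with Csf1r, r was 0.421 and rho 0.238 (exact permutation p = 0.298 and 0.582), and r was 0.824 without impaired mice 1 and 4. For Cx3cl1 with Cx3cr1, r was 0.033 and rho 0.238 (exact permutation p = 0.934 and 0.582), and r was 0.356 without impaired mouse 2 and intact mouse 1. No pair passed 0.05 after adjustment.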

How the data were processed

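Hippocampal RNA of 8 mice was hybridised to 1-colour Affymetrix arrays after amplification of 1 ng of total RNA, per the labels' protocols. The deposited log2 values were made by the authors with RMA, per the submitters' processing notes, which corrects background, normalizes by quantiles and compresses differences of dim genes. The RMA version and genome build were not given in the sources used here. Of 22206 target probe sets, 19572 had 1 gene symbol, 0 several and 2634 none. All 19572 matched RefSeq by Entrez identifier. For the 55 genes with several probe sets the brightest stood for the gene. Genes in the lowest 25% by mean were dropped. Group differences were fitted in limma 3.58.1 (R 4.3.3; two-sided, Benjamini-Hochberg over all 14628 genes tested), a step checked on simulated data. No batch was tested, since the labels name none. No arrays were identical. Precision is limited by the number of arrays.

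The members and lists were chosen with earlier results of these data known. Values of every mouse are given for P2ry12, Tmem119, Cx3cr1, Csf1r, Trem2, Tyrobp, Cst7, Itgax, Spi1 and Aif1 and for the 10 members with the smallest p, and for others where they show a pattern. Of each other pathway list the 3 genes with the smallest p were named, besides some chosen for their role. A list's deviation in a mouse is the mean of its genes' differences from their means over all mice. Alternatives were other filters and normalizations, another variance prior, a replicate block, probe set means, plexus and thalamus covariates and leaving out mice.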

Additional observations from a re-analysis of the deposited data

Results flagged for a closer look

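Within a group of 4 mice, a value was marked when its gap to the nearest of the others was too large a share of the group's range by Dixon's test. Of 62 such groups, 2 were marked, where chance gives about 1 in 20. Fcrls in intact mouse 4 was 6.93, against 7.92 to 8.004 in the other intact mice. Csf1 in impaired mouse 3 was 9.88, against 9.43 to 9.48 in the other impaired mice.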

How the results depend on the processing

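The call of 0 genes held in 16 of 17 settings, and 1 gene passed with limma's trend and robust prior. The 2 members with an unadjusted p under 0.05 became 1 with the lowest 50% of genes left out, after quantile normalization and with the trend and robust prior, and 0 with plexus and thalamus covariates; leaving out single mice gave 0 to 3, and 11 to 24 members with a higher mean. With both mice numbered 3 left out, a setting added after seeing the data, 0 members had such a p, and 9 instead of 16 had a higher mean in the impaired group.

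Over the 29 members tested, 393 of 456 differences kept their direction, and 20 members changed sign in at least 1 alternative. After quantile normalization Trem2 was 0.0034, Selplg 0.0014 and Ccl3 0.00090; after centring on the median Trem2 was 0.0055 and Ccl3 0.0051. Without both mice numbered 3, Cx3cr1 was -0.024, Gpr34 -0.048, Csf1r -0.11, Csf1 -0.14, Cd63 -0.074, Lyz2 -0.069 and Aif1 -0.13. Leaving out single mice, P2ry12 ran from -0.11 to 0.024, Tmem119 from -0.10 to 0.069, Cx3cr1 from -0.064 to 0.10, Siglech from -0.0030 to 0.034, Gpr34 from -0.055 to 0.16, P2ry13 from -0.13 to 0.14, Selplg from -0.11 to 0.054, Csf1r from -0.088 to 0.061, Trem2 from -0.22 to 0.18, Lpl from -0.0080 to 0.11, Axl from -0.057 to 0.050, Csf1 from -0.047 to 0.14, Ccl6 from -0.23 to 0.039, Ccl3 from -0.18 to 0.13, Cd9 from -0.14 to 0.017, Cd63 from -0.072 to 0.15, Cd33 from -0.12 to 0.038, Spi1 from -0.11 to 0.041 and Aif1 from -0.045 to 0.24. The cause was not tested. No member passed an adjusted p of 0.05 in limma in these alternatives. By the unadjusted p, 6 members crossed 0.05 in at least 1 of them: Cst7 in 11, Igf1 in 4, Fcrls in 2, and Tyrobp, Cd52 and Inpp5d in 1 each. The fit with plexus and thalamus covariates is left out of these counts by member. In it neither Cst7 nor Igf1 had an unadjusted p under 0.05.

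Over all genes, the deviations of mice of the same number correlated at -0.10 to 0.033, and in no pair did both mice correlate best with each other. Some single features went together and others apart. The plexus list was at -1.03 and -0.99 in impaired and intact mouse 3, and Fcrls was lowest in mouse 4 of each group. Going apart, the thalamus list was at 0.39 and -1.25 in impaired and intact mouse 3, and the disease-associated members at 0.37 and -0.18. Whether mice of the same number share more than that number was not tested. With the replicate number as a block, 0 genes passed in limma, and 2 members had an unadjusted p under 0.05, not the same ones. Igf1 did, Cst7 did not (limma unadjusted p = 0.0583, adjusted p = 0.986), and Fcrls did (limma unadjusted p = 0.0042, adjusted p = 0.986).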
